A study of Mus musculus with 4 samples.

Results

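The genes described are 6 of the mouse preimplantation embryo, the developmental pluripotency associated genes Dppa1, Dppa2, Dppa3, Dppa4 and Dppa5a, and the T-cell leukaemia gene Tcl1, looked up by symbol. All 6 were present among the 13658 genes of the authors' deposited table. They had been picked because the Dppa genes as a group lay lower after the knockdown, so their fold changes are a description here and are used to support nothing. The samples were wild-type mouse embryos injected at the 1-cell stage with a pool of small interfering RNAs and cultured in M16 medium to the morula, the ball of compacting cells that precedes the blastocyst. There were 2 samples with a non-targeting pool (siNT) and 2 with a pool against Nr1h2 (siNr1h2), which encodes the oxysterol receptor LXRβ. All embryos had therefore been injected and cultured, and neither the number of embryos in a sample nor whether the replicates were injected separately is stated. The p-values rest on a spread that the program DESeq2 estimated from these samples, in part across genes, and that spread may be technical.

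Dppa genes are named for expression that follows that of Oct4 in pluripotent cells, and they are not a single protein family. DPPA2 and DPPA4 are a pair of SAP-domain proteins that bind chromatin together and can activate Dux and, through it, genes of the 2-cell embryo. DPPA3, also called STELLA or PGC7, is a maternal protein that limits DNA methylation by keeping UHRF1 from chromatin and protects maternal methylation from oxidation by TET3. DPPA5A carries a KH-type RNA-binding domain, the biochemical role of DPPA1 is less clear, and TCL1 binds the kinase AKT and raises its activity.

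The data are a comparison of siNr1h2 against siNT that the authors computed, 1 row per gene, with no value per sample. Depth per sample is unknown from it, and no test could be run again. The siRNA target was down in the authors' deposited table, with Nr1h2 at 19.9% of its control level (95% interval 15.4% to 25.7%). All 10 markers of the morula and early blastocyst, Dppa3 among them, were in the table, at mean normalized counts from 191 to 147367 in the authors' deposited table. Of 9 markers of cumulus and granulosa cells, 3 were in it, with a summed mean of 34.5, and of 6 sperm markers none was. Of 6 blood markers 2 were in it, Hba-a1 at 24.6 and Cd68 at 150 in the authors' deposited table. No marker of these other cell types was called, and the granulosa markers Cyp19a1 and Foxl2 had no adjusted p. Of the 10 embryo markers 1 was called, beside 1.98% of all genes with an adjusted p. It was the keratin gene Krt8 (-0.50 ± 0.14 in the authors' deposited table, deposited adjusted p = 0.0211), beside which Krt18 stood at -0.27 ± 0.13. The part of such cells in the values below was not tested.

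Of the 6 members, 2 had an adjusted p under 0.05 in the authors' deposited table, Dppa1 and Tcl1, and both were lower in siNr1h2. Over all genes, 239 of 12069 with an adjusted p were called (1.98%), 184 of them lower (1.52%) and 55 higher (0.456%). The rule drew on this comparison, so nothing is read from the members' count. In the authors' deposited table the other 4 members ran from -0.37 to -0.02 on the log2 scale. The median of the 6 was -0.31, beside 0.00 over all genes with an adjusted p. Genes nearest in mean to Dppa2, Dppa3, Dppa4 and Dppa5a had medians of -0.07, -0.07, -0.06 and -0.07. Of those genes, 94 of 200 lay lower than Dppa4 and 70 of 112 lay lower than Dppa5a. In whole embryos, fewer cells that express a gene and less of its RNA per cell cannot be told apart.

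**Figure D1:**
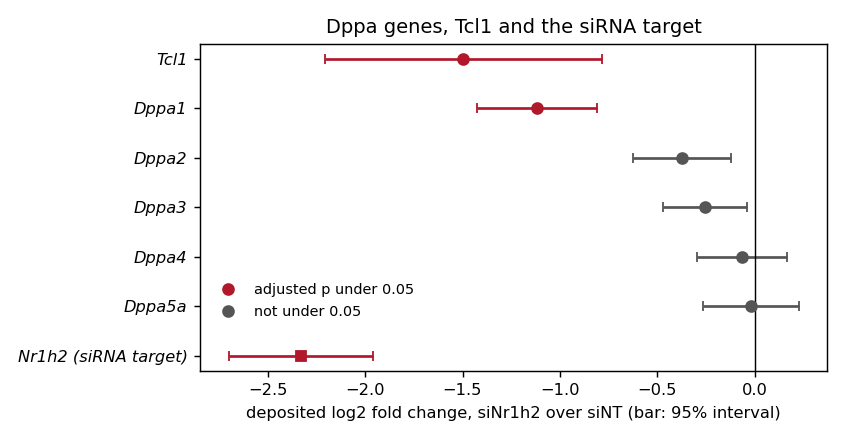
Deposited log2 fold change of siNr1h2 over siNT (x axis) for the 6 members and the siRNA target Nr1h2 (rows), with 95% intervals of 1.96 standard errors as bars and genes with an adjusted p under 0.05 in red. Tcl1 (-1.50) and Dppa1 (-1.12) lie apart from the other members, whose points run from -0.37 to -0.02.

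The sequences upstream of the annotated starts of Dppa1 and Tcl1 are shown because these are the called members, and they are also the members with an entry in the RefSeq promoter table. Both are 250 bases on the minus strand of GRCm38.p6, chr11:46629275-46629524 and chr12:105222738-105222987, printed 5′ to 3′ with the longest run of bases common to both in capitals. The authors' own build was mm9 per the submitters' processing notes, so these positions belong to the sequences and to no deposited value.
Dppa1: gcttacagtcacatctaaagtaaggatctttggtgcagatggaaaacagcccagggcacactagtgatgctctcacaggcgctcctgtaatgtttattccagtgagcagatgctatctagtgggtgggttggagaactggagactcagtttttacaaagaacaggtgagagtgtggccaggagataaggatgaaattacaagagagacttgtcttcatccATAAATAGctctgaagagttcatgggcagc
Tcl1: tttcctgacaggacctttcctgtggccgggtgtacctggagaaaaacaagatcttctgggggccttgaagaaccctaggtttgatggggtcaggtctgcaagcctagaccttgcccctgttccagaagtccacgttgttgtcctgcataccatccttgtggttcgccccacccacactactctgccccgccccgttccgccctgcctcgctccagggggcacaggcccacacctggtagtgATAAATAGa
The common run, ATAAATAG, begins at position -30 before the annotated start of Dppa1 and at -9 before that of Tcl1. It occurs on the gene's own strand in 0.545% of 32851 promoters of the same length, and it was picked by comparing these sequences, so its presence is a description. That share is for these letters alone, and how often any pair of windows shares a run this long was not tested. Neither upstream sequence holds, on either strand, the nuclear receptor half-site AGGTCA (14.0% of promoters) or the direct repeat of it with 4 bases between, to which liver X receptors bind with RXR (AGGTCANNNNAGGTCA, 0.0152%). The site TCAAGGTCA of NR5A2 and ESRRB, which contains that half-site (0.387%), the OCT4 octamer ATGCAAAT (1.60%) and the TATA element TATAAA (12.4%) had no match either, which says only that these letters are not in these windows. The windows differ in base composition, at 45.6% G and C for Dppa1 and 57.6% for Tcl1, beside a median of 52.4% over all promoters.

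Tcl1, the AKT co-activator, was lower in siNr1h2 by 2.82 times per the authors' deposited table (95% interval 1.72 to 4.62, log2 fold change -1.50 ± 0.36 (SE), deposited adjusted p = 0.00545). It was the least abundant member, with a mean normalized count of 71.9 over the 4 samples in the authors' deposited table. Splitting that mean by the deposited fold gives about 106 normalized counts in siNT and 37.6 in siNr1h2, taking both groups to weigh equally. At these counts, counting error by itself would give a standard error of 0.19, and the deposited one was 1.88 times as large. Among the 200 genes nearest in mean (68.4 to 75.3 normalized counts), 186 had a smaller standard error than Tcl1. Their median was 0.34, beside 0.36 for Tcl1, so its interval is only slightly wider than is usual at its level. With Holm adjustment Tcl1 did not pass (adjusted p = 0.449).

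In the authors' deposited table Dppa1 was 2.17 times lower in siNr1h2 (95% interval 1.76 to 2.69, log2 fold change -1.12 ± 0.16 (SE), deposited adjusted p = 6.44e-10). Its mean normalized count was 600 in the authors' deposited table, which splits into about 822 in siNT and 379 in siNr1h2. None of the 200 genes nearest in mean (573 to 628) had a lower log2 fold change, and 1 of them was called. Its standard error was close to the median of those genes (0.16 for both). By p-value Dppa1 ranked 16 of 12069 in the authors' deposited table and Tcl1 83. Members were chosen on this comparison, so these ranks and the place of Dppa1 among genes of like mean are a description. The log2 fold changes of Dppa1 and Tcl1 differed by 0.38 with a 95% interval from -0.40 to 1.15, computed as if the errors of the genes were independent, so which of them fell more is not settled at this precision.

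Dppa2 and Dppa4, the chromatin pair, had different values in the authors' deposited table. Dppa2 stood at a log2 fold change of -0.37 ± 0.13 (SE) with a deposited adjusted p of 0.106, which is 77.1% of the control level (95% interval 64.8% to 91.9%). Dppa4 stood at -0.07 ± 0.12 (deposited adjusted p = 0.871), 95.6% of the control level (81.6% to 112%) in the authors' deposited table. The interval of the difference between them, -0.31, ran from -0.65 to 0.03 under the same assumption, so the partners were not separated beyond their errors. Mean normalized counts were 15084 for Dppa2 and 4863 for Dppa4 in the authors' deposited table.

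Dppa3, the methylation-protecting factor, had the highest mean normalized count of all 13658 genes, 147367, or 1.15% of the summed means of the authors' deposited table. Its log2 fold change was -0.26 ± 0.11 (SE) in the authors' deposited table (deposited adjusted p = 0.271), 83.8% of the control level (95% interval 72.1% to 97.3%). On the count scale this is a difference of about 26043 normalized counts between the groups, against 443 for Dppa1 and 68.6 for Tcl1. The 100 genes nearest below it in mean (15811 to 137177) had a median log2 fold change of -0.07, and 8 of them lay lower than Dppa3. Taking normalized counts as reads, counting error alone would give Dppa3 a standard error of 0.0038, and the deposited one was 29.3 times as large. Those 100 genes had a median standard error of 0.12, beside 0.11 for Dppa3. DESeq2 shares its estimate of spread across genes, so this excess cannot be read as the spread of Dppa3 alone. With fold changes centred on the median of 84 ribosomal protein genes, both Dppa2 (-0.48) and Dppa3 (-0.36) passed, so their calls depend on the scaling. That centring called 484 genes in all, 448 of them lower and 36 higher. Centred on genes with a mean of at least 500, neither Dppa2 nor Dppa3 passed.

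Dppa5a, the KH-domain member, had a log2 fold change of -0.02 ± 0.13 (SE) in the authors' deposited table, 98.6% of the control level (95% interval 83.1% to 117%), and 0.018 when centred on genes with a mean of at least 500. Its mean normalized count of 58013 ranked 13 of all genes in the authors' deposited table. The interval leaves room for a decrease of up to 16.9% or an increase of up to 17.0%, so a small change was not detectable. Of the 15 pairs of members, 9 had a 95% interval of the difference in log2 fold change that left out 0. Those pairs were Dppa1 or Tcl1 with each of Dppa2, Dppa3, Dppa4 and Dppa5a, and Dppa2 with Dppa5a (upper bound -0.0021). Since the members were chosen on these fold changes, the count is a description.

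Per kilobase of the longest coding transcript in GENCODE, the order of the 6 levels was Dppa3 (176912 normalized counts per kilobase), Dppa5a (93720), Dppa2 (6164), Dppa4 (3288), Dppa1 (381) and Tcl1 (51.4). Dppa3 ranked 1 and Dppa5a 3 of the 12919 genes with a coding length, while Tcl1 ranked 6285. The closest neighbours in that order were Dppa3 and Dppa5a, 1.89 times apart, and Dppa2 and Dppa4, 1.87 times apart. The table gives no spread of levels over samples, so whether neighbours in this order differ beyond it is unknown. The called members are thus the lowest in level of the 6, and the 2 most abundant stood at 83.8% and 98.6% of the control level.

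**Figure D2:**
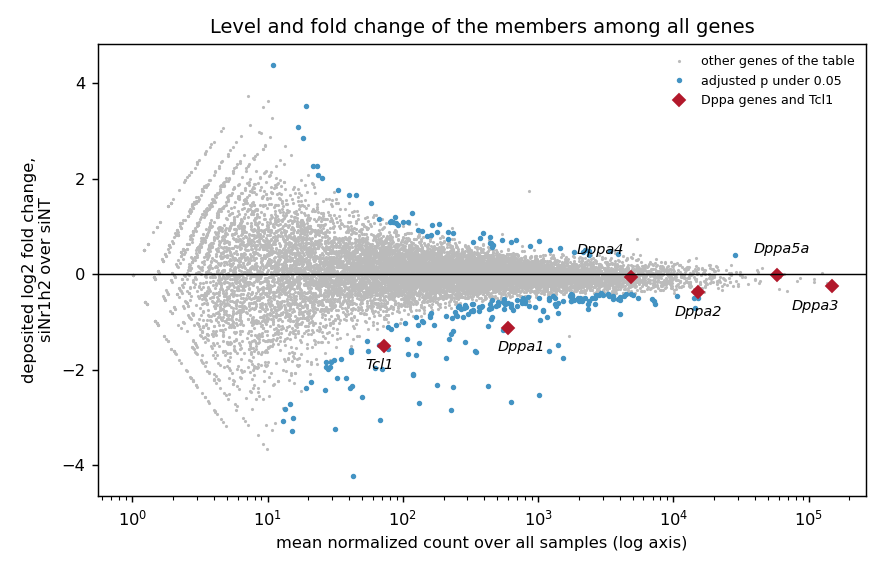
Mean normalized count over all samples (x axis, log scale) against the deposited log2 fold change of siNr1h2 over siNT (y axis), 1 point per gene of the table, with called genes in blue and the 6 members as red diamonds. Dppa3 is the gene farthest to the right at 147367, and Dppa1 and Tcl1 sit below the cloud of genes of like level.

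Members differ in how far their reads can be told from those of other copies. Of all 50-base stretches of the longest coding transcript, none in Tcl1 and 6.23% in Dppa1 (with a long non-coding RNA, Gm12171) occurred in a transcript of another GENCODE gene. The shares were 17.7% for Dppa3, 29.1% for Dppa2, 35.9% for Dppa4 and 38.6% for Dppa5a, with processed pseudogenes and, for Dppa5a, also with its unprocessed copies Dppa5b and Dppa5c and the protein-coding genes Pigp and Gm10112. How the authors' counting treated such reads is not given in the sources used here, and its part in the values was not tested. No exon of another GENCODE gene overlapped an exon of any member.

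The genes most like a called member, by the smallest difference in deposited log2 fold change among genes within 1.5 times of its mean, rest on this 1 comparison. For Dppa1 they were Lgals4, a galectin gene (-1.09 in the authors' deposited table), Ddr2, a collagen receptor kinase gene (-1.17), and Ccne2, a cyclin gene (-0.94). For Tcl1 they were the carnitine transporter gene Slc22a5 (-1.51 in the authors' deposited table), Gm8994 (-1.47) and BC080695 (-1.56). Of genes of like mean, 3 of 1775 lay lower than Dppa1, and 7 of 1619 lay lower than Tcl1. As the members were chosen on these fold changes, these counts are a description.

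Position was not part of the choice of members, and the 3 protein-coding genes on either side of each were read from the RefSeq gene order of GRCm38.p6. Of 30 distinct neighbours that are no member, 19 were in the authors' deposited table, 16 had an adjusted p and 1 was called, beside 1.98% of all genes. That gene was BC053393, directly beside Dppa1 on chromosome 11. In the authors' deposited table it was 2.09 times lower in siNr1h2 (95% interval 1.38 to 3.17, log2 fold change -1.06 ± 0.31 (SE), deposited adjusted p = 0.0355, mean normalized count 88.5). On the other side of Dppa1, Timd2, of the TIM receptor family, stood at 0.02 ± 0.13 with a mean of 124927 in the authors' deposited table. The call of BC053393 was lost at a threshold of 0.01 and under Holm adjustment. The gene after Timd2, Havcr1 of the same family, stood at -0.50 ± 0.15 (deposited adjusted p = 0.0540 in the authors' deposited table), and Gm12169, beyond BC053393, at -0.14 ± 0.42. Havcr1 passed at 0.1, with adjustment over genes with a mean of at least 50 (adjusted p = 0.0472) and centred on ribosomal protein genes. The genes beside Dppa1 were thus not alike, and BC053393 and Dppa1 shared no 50-base stretch.

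Around the other members no neighbour was called. Dppa3 lies between Gdf3, a TGF-β family ligand gene (-0.27 ± 0.18 in the authors' deposited table), and Nanog, the pluripotency factor gene (0.06 ± 0.14), with the glucose transporter gene Slc2a3 beyond it (-0.24 ± 0.13). Dppa2 and Dppa4 lie side by side on chromosome 16, with Nectin3 (-0.40 ± 0.36) and Morc1 (-1.29 ± 0.90) as their measured neighbours in the authors' deposited table. Directly beside Dppa5a, Ooep, of the KH-type group itself, stood at 0.35 ± 0.22, and 3 genes away the DNA sensor gene Cgas stood at 1.04 ± 0.79 in the authors' deposited table. Tcl1 had 1 measured neighbour, D430019H16Rik (-0.23 ± 0.59 in the authors' deposited table).

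**Figure D3:**
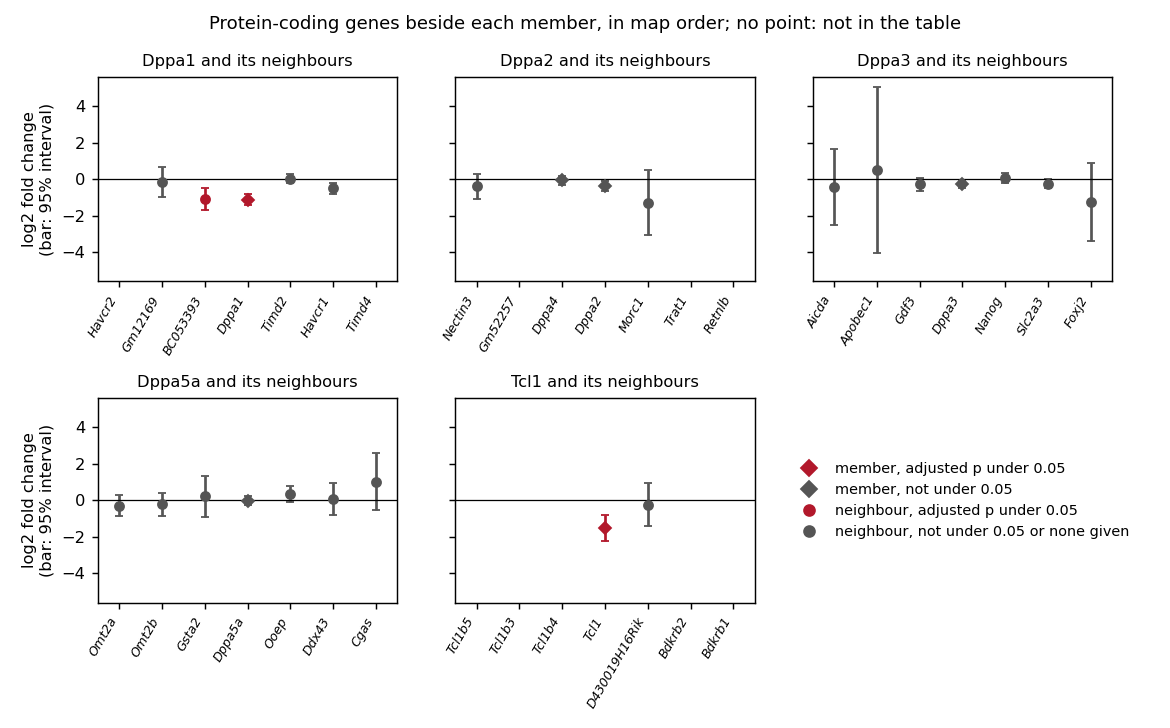
Deposited log2 fold change of siNr1h2 over siNT (y axis, bars are 95% intervals) for each member (diamond) and the 3 protein-coding genes on either side (circles), in map order with equal spacing. Dppa4 is shown in the panel of Dppa2, red marks an adjusted p under 0.05, and a gene with no point is not in the table. BC053393 (-1.06) is the red neighbour, next to Dppa1 (-1.12).

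The genes around the members were read from 7 lists with 125 entries. The AKT pathway around Tcl1 had 26 of 26 genes in the authors' deposited table, of which none was called, 25 stood above the threshold of the authors' DESeq2 test and 1 lacked an adjusted p. Before adjustment 4 were under 0.05. A share of 0 among 25 lies near the 1.98% called over all genes. Its median log2 fold change was -0.09. The lowest p-values belonged to Pik3cb, a catalytic subunit of PI3-kinase (-0.40 ± 0.17 in the authors' deposited table), Akt1s1, an inhibitory subunit of mTORC1 (0.37 ± 0.17), Rheb, its activating GTPase (-0.28 ± 0.13), and Inpp5d, a phosphoinositide phosphatase (0.34 ± 0.17). The kinases that TCL1 binds, named for that role and outside the naming rule, stood at -0.41 ± 0.25 for Akt1 and 0.10 ± 0.17 for Akt2 in the authors' deposited table. Of 6 relatives of Tcl1 only Mtcp1 was in the table, where its mean was 5.39 normalized counts and the authors' deposited table lists no adjusted value for it, so the family gives no second reading of Tcl1.

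Genes that DPPA2 and DPPA4 can activate, mostly 2-cell genes, held called genes in 4 of 11 members with an adjusted p, all lower, while 7 did not pass and 2 had none, beside 1.52% of all genes called lower. Their median log2 fold change was -0.96 beside 0.00 for all genes with an adjusted p. The called genes were Usp17lb, a deubiquitinase gene (-4.21 ± 0.61 in the authors' deposited table), Zscan4a, a zinc finger gene of 2-cell-like cells (-3.23 ± 0.61), the zinc finger gene Zfp352 (-2.08 ± 0.29) and the BTB-domain gene Tdpoz2 (-0.98 ± 0.25). Syce1, a meiotic gene of this list, stood at -0.14 ± 0.21 in the authors' deposited table. Of the 23 genes listed, 10 were not in the table, Dux among them. The call of Tdpoz2 was lost at a threshold of 0.01 and under Holm adjustment, and Usp17lb and Zscan4a have means under 50 and so left the test that kept genes above it. Other copies of the called genes, outside the naming rule, had unlike values and did not pass. Zscan4c stood at -0.96 ± 0.44, Zscan4d at 0.04 ± 0.47 and Tdpoz1 at -0.69 ± 0.26 in the authors' deposited table. Usp17lc stood at -3.16 ± 1.05, Usp17ld at -2.60 ± 1.03 and Usp17la at -0.46 ± 0.85. Zscan4b (-0.86 ± 1.68) and Usp17le (1.38 ± 1.35) had no adjusted p. The Usp17l, Zscan4 and Tdpoz genes are multi-copy, so their single values are uncertain. Earlier results of these data had already shown the decrease of the called genes, so the count and the median of this list are a description.

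The SUMO pathway, which acts on DPPA2 through the ligase PIAS4, had 15 of 15 genes in the authors' deposited table and none called by DESeq2 (3 under 0.05 before adjustment), beside 1.98% of all genes, with a median log2 fold change of -0.17. Sumo3 (-0.37 ± 0.13), Sumo2 (-0.31 ± 0.12) and the protease gene Senp3 (-0.25 ± 0.13) lay below 0 and the ligase gene Pias3 above it (1.04 ± 0.37) in the authors' deposited table. Centred on ribosomal protein genes, Sumo3 (adjusted p = 0.0148) and Sumo2 (adjusted p = 0.0256) passed. Pias4 itself, outside the naming rule, stood at 0.23 ± 0.26 in the authors' deposited table.

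Partners of DPPA3 and genes of DNA methylation had none called by DESeq2 among 17 with an adjusted p (1 under 0.05 before adjustment), 1 without, and a median of -0.17. The exportin gene Xpo1 stood at -0.23 ± 0.12, the oxidase gene Tet2 at -0.26 ± 0.14, the glycosylase gene Tdg at -0.63 ± 0.37 and the methyltransferase cofactor gene Dnmt3l at -0.21 ± 0.14 in the authors' deposited table. Genes named for their role beside DPPA3 were Uhrf1 (0.23 ± 0.17), its partner Dnmt1 (0.19 ± 0.20) and Tet3 (0.10 ± 0.37) in the authors' deposited table. None of 5 KH-domain relatives of Dppa5a was called by DESeq2 either (1 under 0.05 before adjustment), beside the same 1.98% of all genes. Khdc3 stood at 0.29 ± 0.14, Ooep as given above, Khdc1b at -0.49 ± 0.28 and Khdc1c at 0.44 ± 0.55 in the authors' deposited table.

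Among 31 other transcripts tied to Oct4 or embryonic stem cells in the authors' deposited table, 2 were lower, 1 was higher and 28 did not pass, beside 1.98% of all genes called, with a median of 0.00. The lower genes were Klf17, a Krüppel-like factor gene (-0.76 ± 0.18 in the authors' deposited table), and Tdgf1, a Nodal co-receptor gene (-0.52 ± 0.16). The higher gene was Tex19.2, of a germline and placental pair (0.77 ± 0.17 in the authors' deposited table), and Pramel7, of the PRAME family, stood at -0.34 ± 0.11 without passing. Under Holm adjustment none of Klf17, Tdgf1 and Tex19.2 passed, and Tdgf1 (deposited adjusted p = 0.0489) was also lost with a minimum fold of 1.5, at 0.01, with adjustment over every gene and centred on genes with a mean of at least 500. Pramel7 passed at 0.1 and centred on ribosomal protein genes. Pou5f1, which encodes Oct4, had a value of 0.43 ± 0.15 in the authors' deposited table and did not pass, and neither did the factor gene Sox2 (0.23 ± 0.31).

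**Figure D4:**
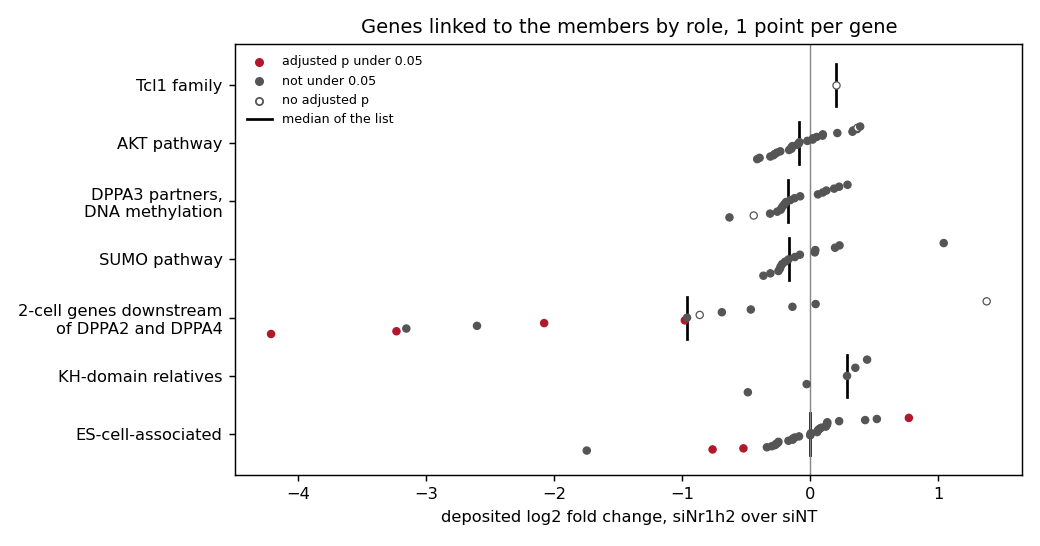
Deposited log2 fold change of siNr1h2 over siNT (x axis) for the genes of 7 lists tied to the members by role (rows), 1 point per gene, red where the adjusted p is under 0.05, open where none was given, with each list's median as a black bar. The list of 2-cell genes has its median at -0.96 and 4 red points, and the other lists have medians between -0.17 and 0.29. The lists were chosen with earlier results of these data known.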

How the data were processed

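Polyadenylated RNA of 4 mouse morula samples, 2 per group, was made into libraries with SMART-Seq v4 and Nextera XT, per the labels' protocols. The submitters' processing notes name STAR, HTSeq 0.12.4, RSEM, Cufflinks 2.2.1, edgeR, DESeq2 and mm9, with no role or order. The authors deposited, per the file headers, a mean normalized count (a signal value), a log2 fold change and standard error, a Wald statistic (a score), and a p-value with its adjusted p-value per gene. The deposited p-values were two-sided normal p-values of the statistic, adjusted by Benjamini-Hochberg over 12069 genes. Another 1589 genes, with means up to 8.00, had no adjusted p. Depth per sample is unknown, and the number of per-sample columns set aside is 0.

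Folds and 95% intervals (1.96 standard errors), group means implied by the mean and the fold, and counting-only standard errors were computed. The tools were Python 3.11.15, pandas 2.3.3 and scipy 1.17.1. The adjustment step was run on fold changes simulated with the deposited standard errors, which is no test of the authors' calls. Coding lengths came from GENCODE M21 by symbol for 94.6% of genes. The members and lists were chosen with earlier results of these data known. Named genes were the members, Nr1h2, called list genes and up to 4 of smallest p per list, called neighbours or otherwise up to 2 of smallest p, and the 3 genes most like each called member. Other genes, such as partners of the members and further neighbours of Dppa1, were named after values were seen. The alternatives were other thresholds, a minimum fold, other sets of genes to adjust over, Holm adjustment, centring and a t distribution.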

Additional observations from a re-analysis of the deposited data

How the results depend on the processing

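Dppa1 and Tcl1 were the members called as reported and at thresholds of 0.01 and 0.1, with a minimum fold of 1.5, with adjustment over every gene or over genes with a mean of at least 50, and centred on genes with a mean of at least 500. Holm adjustment left 1 member, Dppa1 (Tcl1 adjusted p = 0.449), and 49 genes in all. Centring on 84 ribosomal protein genes, which moves every log2 fold change down by 0.11, called 4 members, adding Dppa2 (-0.48, adjusted p = 0.00988) and Dppa3 (-0.36, adjusted p = 0.0310), and 484 genes, 448 of them lower and 36 higher, against 184 and 55. Centring on genes with a mean of at least 500 gave 142 lower and 82 higher. With the Wald statistics referred to a t distribution with 2 degrees of freedom, 0 members and 0 of the 239 genes passed, while 68 genes, Dppa1 the 1 member among them, were under 0.05 before adjustment. That setting could not pass the threshold, so this says nothing about stability. At thresholds of 0.01 and 0.1, 109 and 395 genes were called. Direction changed for Dppa5a (0.018 when centred on genes with a mean of at least 500) and, centred on ribosomal protein genes, for Nanog (-0.052), Timd2 (-0.083), Akt2 (-0.010) and Tet3 (-0.0080), none of them called. No paired analysis was possible because the table holds no value per sample. For the same reason leaving out a replicate, another count test and another normalization were not run.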
